A study of Mus musculus with 4 samples.

Results

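The genes described here are the expressed genes of mouse chromosome 9, taken in the order of their start positions. They were selected on position and on expression: a gene entered if it lay on chromosome 9 and its normalized count averaged 10 or more over the 4 libraries, and Car12 and Acsbg1 were left out. The table held 2837 genes of the chromosome. No library had a read of 1380 of them, and 650 had reads but a mean under 10. That left 807 genes, and 805 without Car12 and Acsbg1, of 14238 genes that passed the same filter on the whole genome. The lowest mean among them was 10.046 normalized counts (Gm47113), and the highest among those left out by the filter was 9.92 (Gm16379). Along these 805 genes a running median of 31 members was drawn through the log2 difference between resistant and control cells. Runs of at least 10 positions past 0.25 were named shifted segments. The segments were thus chosen by the difference itself, so every value of it below is a description and carries no test.

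Bulk RNA was sequenced from 4TO7 cells, a mouse mammary carcinoma line, recovered from tumors in Balb/c mice by enzymatic digestion. In 2 libraries the cells came from tumors labelled resistant to immunotherapy, and in 2 from control tumors. The treatment protocol of all 4 samples names anti-PD-L1, an antibody to the checkpoint ligand PD-L1, given in vivo, whereas the treatment tag of all 4 reads Untreated, so what the controls received is not settled by the labels. The series' design text speaks of individual biological replicates and names no animals, so any spread given below is that between these libraries. The groups share line and strain, and neither a transgene nor a sorting step is named.

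Genes that are neighbours on a chromosome share its DNA content and its large chromatin domains. In aneuploid tumor cells a gained or lost chromosome, or a stretch of one, can raise or lower many neighbouring transcripts by a small step at once, while single genes also respond to their own regulators. A running median over neighbours shows the first kind of pattern, since a few strongly regulated genes hardly move it. DNA was not measured in these files, and copy number was not tested.

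The region just around the annotated start of a gene is where its own regulation begins, and it is shown for 4 members that differ in kind, chosen after their values were seen: Tpm1 and Myo1e from the same shifted segment, and Nt5e and Cck from outside the segments. Each window spans 300 bases of RefSeq's GRCm38.p6 reference around the annotated start, read 5′ to 3′ on the gene's strand. Capitals mark a CCAAT box (CCAAT or its reverse ATTGG), a GC box (GGGCGG or its reverse CCGCCC), an E box (CACGTG) or a TATA box (TATAAA or its reverse TTTATA). The motifs were searched on both strands, GC boxes may overlap each other, and a match is a description of the letters only.
Tpm1 (chr9:67049164-67049463, minus strand): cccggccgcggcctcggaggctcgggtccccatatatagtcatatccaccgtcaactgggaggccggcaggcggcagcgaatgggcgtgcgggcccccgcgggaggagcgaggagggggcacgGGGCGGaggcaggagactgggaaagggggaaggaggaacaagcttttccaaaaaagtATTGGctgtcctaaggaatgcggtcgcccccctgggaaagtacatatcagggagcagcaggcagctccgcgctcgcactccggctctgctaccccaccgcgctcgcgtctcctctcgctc
Myo1e (chr9:70207100-70207399, plus strand): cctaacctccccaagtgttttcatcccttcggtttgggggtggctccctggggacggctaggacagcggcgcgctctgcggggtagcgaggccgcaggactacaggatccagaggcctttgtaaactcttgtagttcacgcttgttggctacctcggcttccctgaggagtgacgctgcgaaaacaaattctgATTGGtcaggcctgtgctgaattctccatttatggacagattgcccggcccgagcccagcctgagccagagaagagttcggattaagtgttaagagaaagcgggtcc
Nt5e (chr9:88327359-88327658, plus strand): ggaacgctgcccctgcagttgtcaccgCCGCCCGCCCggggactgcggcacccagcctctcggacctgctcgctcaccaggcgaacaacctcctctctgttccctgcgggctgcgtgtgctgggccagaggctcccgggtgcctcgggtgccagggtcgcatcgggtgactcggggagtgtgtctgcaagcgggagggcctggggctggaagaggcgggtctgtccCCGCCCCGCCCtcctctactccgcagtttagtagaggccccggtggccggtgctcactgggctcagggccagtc
Cck (chr9:121495645-121495944, minus strand): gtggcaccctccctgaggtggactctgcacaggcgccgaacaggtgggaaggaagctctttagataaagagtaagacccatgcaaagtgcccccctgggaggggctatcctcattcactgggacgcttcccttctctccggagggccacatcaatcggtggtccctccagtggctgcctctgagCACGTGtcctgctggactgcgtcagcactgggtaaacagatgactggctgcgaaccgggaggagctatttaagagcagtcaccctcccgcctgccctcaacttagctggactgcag

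The windows of Tpm1 and Myo1e, which lie in the same segment, held 27 and 16 CpG dinucleotides and 66.3% and 56.7% G and C. Tpm1 had 1 GC box and 1 CCAAT box, and Myo1e had 1 CCAAT box and no GC box. Nt5e had 23 CpG dinucleotides, 71.0% G and C and 4 GC boxes in 2 overlapping pairs. Cck had 10 CpG dinucleotides, 59.3% G and C and 1 E box. A RefSeq window was found for 620 of the 805 members. Of these 620 windows, 65.0% held a GC box, 39.7% a CCAAT box, 10.5% an E box and 8.55% a TATA box. In all 32851 windows of the genome, which include genes that these cells did not express, the shares were 35.7%, 37.4%, 7.15% and 13.6%.

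The libraries held between 45666470 and 49592054 counted reads. Within the resistant pair the log2 difference of all tested genes had an SD of 0.31, and within the control pair 0.45. Of 6 epithelial markers, Krt8, Krt18 and Cdh1 had about 1952 normalized counts or more in every library and Krt14 was at 0. Krt7 had 90.7 and 135 in resistant and 34.6 and 24.2 in control libraries, whereas Epcam was lower in the resistant ones, as given with St14 below. Of 3 mesenchymal markers, Vim and Fn1 had 124788 or more and Cdh2 at most 2.02. Of 7 leukocyte markers only Cd68 passed the filter, at 10566 and 9975 normalized counts in the resistant libraries and 3227 and 6349 in the controls. The markers Ptprc, Itgam, Adgre1 and Cd3e lay between 0 and 2.14 normalized counts. Lyz2 had 8.15 and 7.51 in resistant and 1.92 and 1.01 in control libraries, and Csf1r 3.06 and 4.29 against 3.84 and 8.07. The endothelial markers summed to 14.3 and 17.2 normalized counts in the resistant libraries and 30.7 and 19.2 in the controls. Those of fibroblasts summed to between 6434 and 9486, with no order by group. Among these Dcn had 163 and 143 in resistant cells and 763 and 483 in controls, Pdgfrb 352 and 458 against 218 and 185, Pdgfra overlapped between the groups, and Lum had at most 1.92. In bulk RNA, fewer cells of a type and less RNA per cell cannot be told apart, and the part of other cell types in the values below was not tested.

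Chromosome 9 as a whole lay a little higher in the resistant cells. The median log2 difference of its 805 members was 0.18 above the median of all tested genes, a ratio of 1.13, and their quartiles lay at -0.0017 and 0.37. A difference above 0 was seen in 601 members (74.7%, against a background of 50.3% of all tested genes). Both resistant libraries lay above both controls in 398 members (49.4%, background 28.4%) and below both in 104 (12.9%, background 28.3%). The contrast that gives these counts is the one that drew the running median, and nothing is read from them beyond their size. Most of the excess was small. 566 of the 805 members lay between 0 and 1 on the log2 scale, beside 6660 of all 14238 tested genes. 35 members lay at 1 or more (background 3.53%) and 22 at -1 or less (background 4.15%).

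The shift was of like size in every pair of libraries across the groups. Each library's level of chromosome 9 was taken as the median deviation of the members from their mean over the 4 libraries, with the same median over all tested genes subtracted. It was 0.090 and 0.095 in the resistant libraries and -0.091 and -0.085 in the controls. The 2 libraries of a group thus lay closer to each other than to either library of the other group. In the 4 pairs of 1 resistant and 1 control library the median difference was 0.17, 0.17, 0.18 and 0.18. Between the resistant libraries it was -0.01, and between the controls -0.02. Rescaling each library to the same total moves all genes alike and so cannot change the distance from their median. It moved the count above 0 to 562 members (69.8%, against 45.2% of all tested genes).

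A limma fit over all 14238 tested genes, with Benjamini-Hochberg adjustment and a threshold of 0.05, called 80 members higher (9.94%, background 5.32%) and 21 lower (2.61%, background 4.73%). Below, "called" has this meaning, and a log2 difference is given with its standard error from that fit. The counts depend on single libraries: they were 18 higher and 6 lower without resistant replicate 1 (background 1.42% and 1.64%) and 11 and 7 without resistant replicate 2 (1.03% and 1.88%). Without control replicate 1 they were 189 and 32 (12.7% and 9.83%), and without control replicate 2 they were 215 and 52 (14.6% and 14.0%). Of the members named below and called, 10 were called in all 4 of these fits: Slc37a2, Mcam, Idh3a, Coro2b, Myo5c, Nt5e, Nmnat3, Bsn, Acpp and Cck.

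**Figure D1:**
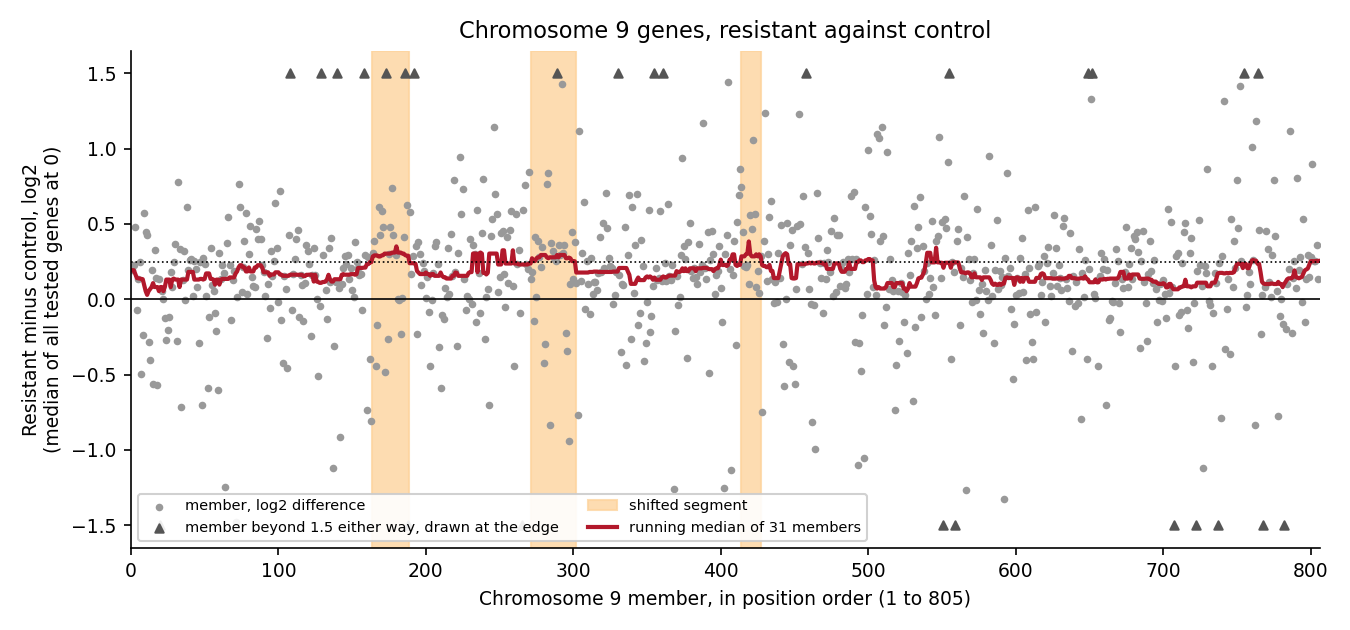
Each grey point is 1 of 805 chromosome 9 members, in position order on the x axis, with its log2 difference (resistant minus control, 2 libraries each, less the median of all tested genes) on the y axis. Triangles are members beyond 1.5 either way, drawn at the edge, the red line is the running median of 31 members, the dotted line marks 0.25 and the shaded bands are the 3 shifted segments. The red line stays above 0 from end to end, between 0.03 and 0.38.

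The running median lay above 0 at all 805 positions and at 0.1 or more at 742 of them (92.2%). Its lowest value was 0.03, at the collagenase gene Mmp13 (7.3 Mb), and its highest 0.38, at Bnip2 (70.0 Mb). It reached 0.25 at 115 positions and -0.25 at none. These 115 positions fell into 17 runs, of which 14, with 46 members in all, were shorter than 10 members, and the longest of those 14 had 6. The line therefore moved within a narrow band over its whole length, and its upper parts were not set off from the rest by a wide step.

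The same line was drawn for each pair of libraries. In the 4 pairs of 1 resistant and 1 control library it lay above 0 at 99.1% to 100% of positions. Its lowest values were -0.05, 0.01, -0.17 and -0.03, and its highest 0.39, 0.41, 0.40 and 0.40. Between the resistant libraries the line ran from -0.13 to 0.16 and lay above 0 at 46.0% of positions. Between the controls it ran from -0.17 to 0.20 and lay above 0 at 41.6%. No pair within a group reached 0.25 at any position. In 2 of the pairs across groups the lowest point lay at Mmp1b (7.4 Mb) or Dcun1d5 (7.2 Mb), in the stretch of the matrix metalloproteinase genes.

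**Figure D2:**
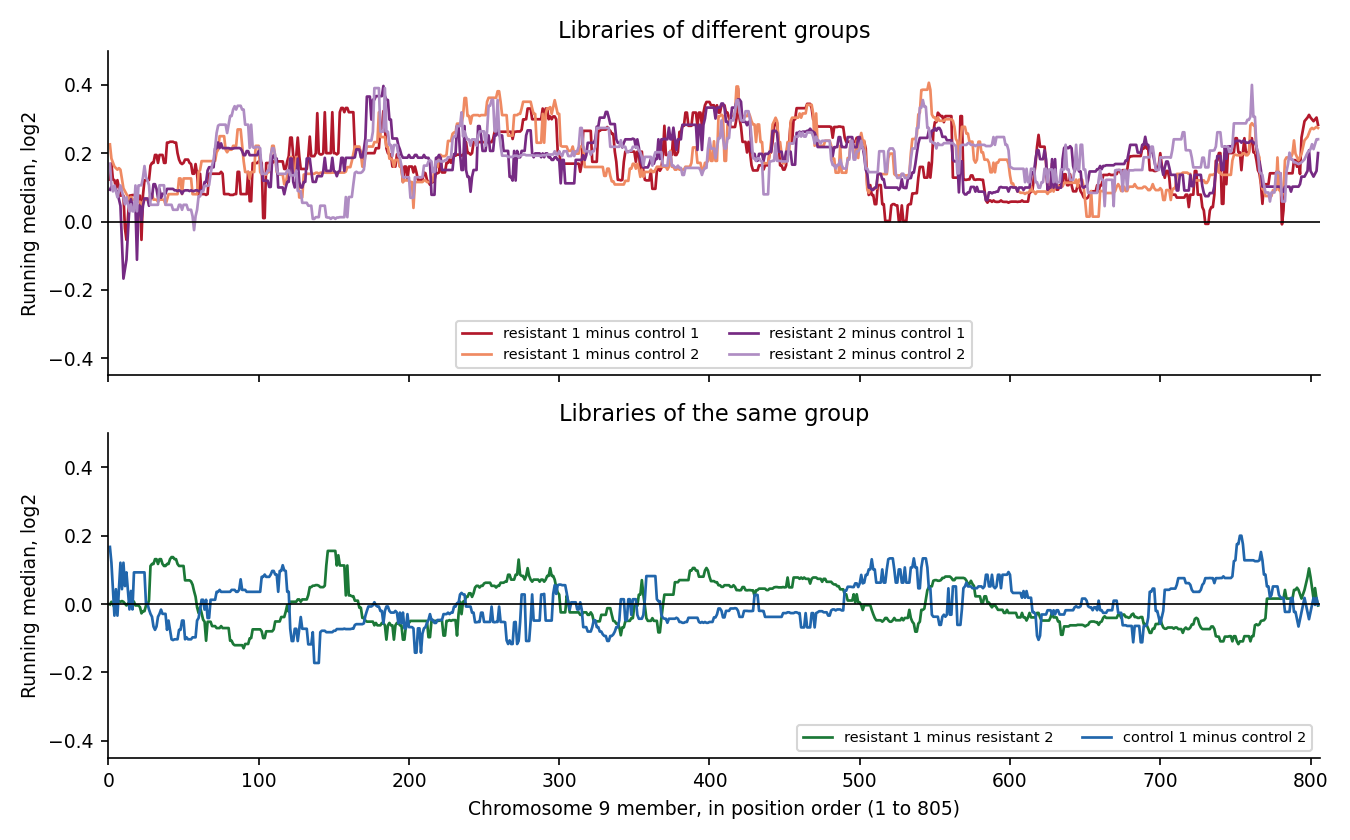
Running medians of 31 members along the 805 chromosome 9 members (x axis, position order), in log2 units less the median of all tested genes (y axis). The upper panel holds the 4 pairs of 1 resistant and 1 control library, which lie above 0 at 99.1% or more of positions, and the lower panel the 2 pairs within a group, which cross 0 along the chromosome.

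In windows of 10 Mb, all 13 medians were above 0, from 0.11 between 110 and 120 Mb (64 members) to 0.24 between 70 and 80 Mb (61 members). The first window, with 23 members including the caspase and metalloproteinase clusters, had a median of 0.13 and 14 members above 0. There the libraries overlapped: their levels were 0.071 and 0.028 in resistant cells and 0.041 and -0.097 in controls. In the other 12 windows both resistant libraries lay above both controls. The distance was small in the windows from 10 to 20 Mb, where resistant replicate 2 stood at 0.021 and control replicate 2 at -0.012, and from 30 to 40 Mb, where they stood at 0.055 and 0.022. From 50 to 80 Mb the windows had medians of 0.22, 0.21 and 0.24, with 78.3%, 83.8% and 78.7% of members above 0. The last window, from 120 Mb to the end, had a median of 0.15.

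**Figure D3:**
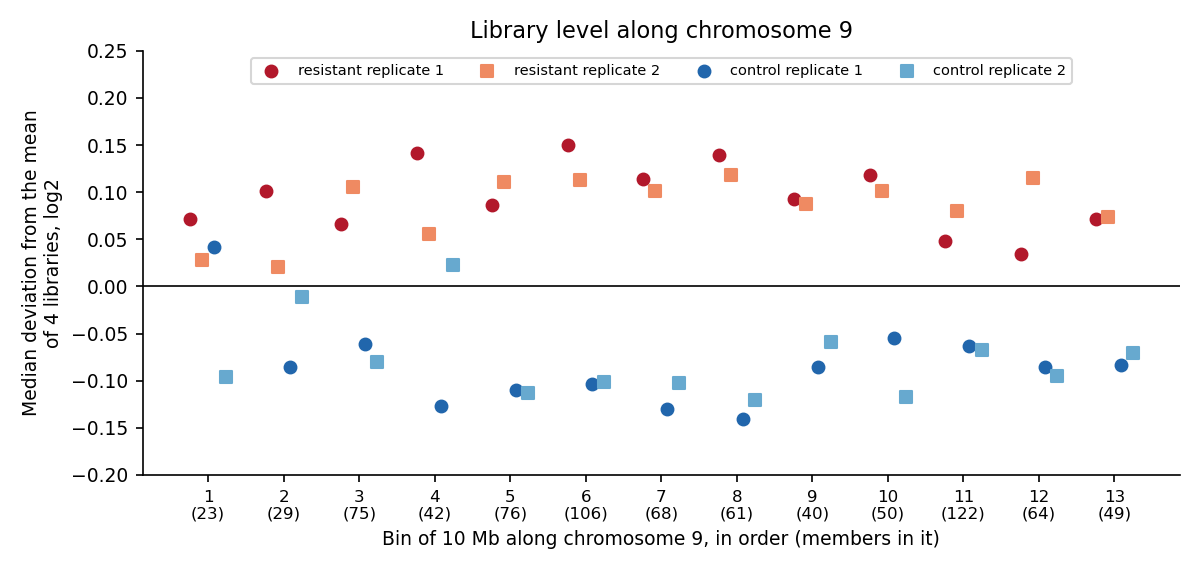
Level of chromosome 9 in each library (y axis, median deviation of the members from their mean over 4 libraries, log2, less that of all tested genes) in 13 windows of 10 Mb in order along the chromosome (x axis, with the number of members). Each point is 1 library, with no error bar. The resistant libraries lie above the controls in all windows except the first, where control replicate 1 lies above resistant replicate 2.

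3 runs met the rule for a shifted segment, all of them higher in resistant cells, with 69 members (8.57%). Their medians were 0.31, 0.29 and 0.26, ratios of 1.24, 1.22 and 1.19, and the 736 members in no segment had a median of 0.16, a ratio of 1.12. Of the 736, 74.2% lay above 0. With other libraries the number of segments changed: 7 without resistant replicate 2, 7 without control replicate 1 and 5 without control replicate 2, holding 15.8%, 14.7% and 10.6% of the members. Their places changed too: of the 69 members, 39 were inside a segment again with resistant replicate 1 left out and 49 with resistant replicate 2 left out. Leaving out control replicate 1 or 2 put 29 or 28 of them inside one. The segments are therefore described below as stretches where these 4 libraries together passed 0.25. Nothing in these data gives them sharp ends, since the running median at the members named below as just outside them lay at 0.23 to 0.25.

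The first segment ran from Tbrg1 to the noncoding gene Gm30373 (chr9:37648763-43970253, GRCm38), 6.321 Mb with 25 members, of which 18 lay above 0 and 5 were called higher and 1 lower, so that 1 in 5 was called higher, against 5.32% of all tested genes and 9.51% of the members in no segment. The running median went from 0.25 at Spa17, just before it, to 0.28 at Tbrg1, and from 0.29 at Gm30373 to 0.24 at Usp2, just after it. Its library levels were 0.157 and 0.247 in resistant cells and -0.141 and -0.184 in controls, and without resistant replicate 1 the median was 0.40. Nectin1, an adhesion molecule of adherens junctions, had 1909.7 and 2137 normalized counts in the resistant libraries and 1309 and 1307 in the controls. The log2 difference was 0.63 ± 0.12, and the call was lost without either resistant library. Tbrg1 had 13039 and 13017 against 9923 and 11094 (log2 difference 0.31 ± 0.11, not called), and part of its exons overlaps Siae on the other strand.

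For 3 other named genes of this stretch the libraries of the groups overlapped. Oaf had 29226 and 34998 normalized counts in resistant and 38692 and 26139 in control cells, with a log2 difference of 0.01 ± 0.19. Arhgef12, an exchange factor for small GTPases, had 6225 and 6786 against 6162 and 6895, a difference of -0.00 ± 0.11. Vwa5a had 3276 and 3729 against 4554 and 3394, a difference of -0.17 ± 0.16. Without overlap, the sorting receptor Sorl1 stood at 4945 and 5967 against 4506 and 4245 (log2 difference 0.31 ± 0.12, not called). The last member, the noncoding gene Gm30373, went against the segment, with 9.17 and 6.44 against 32.7 and 31.3 normalized counts (log2 difference -1.92 ± 0.40), and was the 1 member called lower. The segment also held fewer protein-coding genes than the rest, 15 of 25 (60.0%) against 85.7% of the members in no segment, and a lower median of mean normalized counts, 472 against 1289.

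The second segment ran from Rdx to Peak1 (chr9:52047173-56418067), 4.371 Mb with 30 members. Of these, 23 (76.7%) lay above 0, against 74.2% of the members in no segment, and 2 were called higher and 1 lower. These calls are 6.67% and 3.33% of its members, near the 5.32% and 4.73% of all tested genes, and the share called higher was below the 9.51% of the members in no segment. The running median was 0.24 at Fdx1, just before it, against 0.27 and 0.25 at its ends. The library levels were 0.163 and 0.104 in resistant cells and -0.105 and -0.129 in controls. Idh3a, the catalytic subunit of mitochondrial NAD-dependent isocitrate dehydrogenase, had 5675 and 5478 normalized counts in resistant and 2898 and 3342 in control libraries, a log2 difference of 0.84 ± 0.11, and was called in every fit that left out 1 library. Acsbg1, which was left out of the members, lies next to it, at chr9:54604877-54661870, and its log2 difference was 3.76 ± 0.23. The next member, Dnaja4, a cochaperone of Hsp70 proteins, went the other way, with 329 and 271 against 476 and 596 (log2 difference -0.83 ± 0.19). That call was lost without either resistant library, and Dnaja4 shares exon sequence with Wdr61 on the other strand.

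Other named members of the second segment differed by 0.13 to 0.39. The DNA damage kinase Atm had 2254 and 2185 against 1495 and 1920.3 normalized counts (log2 difference 0.39 ± 0.14), and its neighbour Npat, a coactivator of histone genes, 3083 and 3009.7 against 2228 and 2821 (0.28 ± 0.14). Cul5, a scaffold of ubiquitin ligases, had 4729 and 4154 against 3303 and 3648 (0.35 ± 0.12). Both resistant libraries were above both controls for each of these 3 genes, and none was called. The cytoskeletal pseudokinase Peak1 had 14346 and 16805 against 12729 and 11162 (0.38 ± 0.13). Radixin (Rdx), which links actin to the membrane, had 10368 and 10503 against 8624 and 9778 (0.18 ± 0.11). The tetraspanin Tspan3 had 11228 and 11938 against 11370.1 and 9779 (0.13 ± 0.12), and its libraries overlapped.

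The third segment ran from Tpm1 to Mindy2 (chr9:67022590-70657174), 3.635 Mb with 14 members, all 14 of them above 0, with 3 called higher and 0 lower. The shares above 0 and called higher, 100% and 21.4%, stand beside 50.3% and 5.32% of all tested genes. For the members in no segment they were 74.2% and 9.51%. At the edges of the third segment the running median stepped from 0.23 at Lactb to 0.28 at Tpm1, and from 0.28 at Mindy2 to 0.23 at Gm10642. In 11 of the 14 (78.6%) both resistant libraries lay above both controls, against 28.4% of all tested genes and 49.4% of the chromosome, and the same contrast chose the segment. Its library levels were 0.117 and 0.167 in resistant cells and -0.102 and -0.199 in controls, and without control replicate 1 its median was 0.33. Tropomyosin 1 (Tpm1, chr9:67022590-67049406), which stabilises actin filaments, had 62657 and 61373 normalized counts in resistant and 36193 and 37643 in control libraries, a log2 difference of 0.75 ± 0.12. Myo1e (chr9:70207350-70399766), a single-headed myosin that binds membranes, had 9137 and 9842 against 6392 and 6380.2, a difference of 0.57 ± 0.10. Both calls were lost without either resistant library. The promoter windows of these 2 genes, printed above, differed in GC boxes and CpG content.

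Other named members of the third segment had smaller differences. Annexin A2 (Anxa2), a calcium-dependent membrane-binding protein, had 39315 and 39222 against 35549 and 31498 normalized counts (log2 difference 0.23 ± 0.12). The deubiquitinase gene Mindy2 had 5699.7 and 6045 against 4944 and 4679 (0.29 ± 0.10). Sltm had 5546 and 5055 against 5213 and 5038, and the difference was 0.05 ± 0.11 with the libraries overlapping. Car12, left out of the members, ends before the segment, at 66766845, and had a log2 difference of 2.86 ± 0.11.

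Segments were also located in 1 pair of libraries and read in the other. The libraries numbered 1 gave 8 segments, all with a running median above 0.25, whose members had medians of -0.06 to 0.34 in the libraries numbered 2. A running median past 0.25 did not always mean a high median of the members inside: from Arid3b to Gm10657 (57.8 to 58.6 Mb, 11 members) it was -0.0003 in the locating pair and 0.20 in the other. The longest of them, from Tipin to Gcnt3 (64.3 to 70.0 Mb, 42 members), had 0.29 in the first pair and 0.23 in the second. The one that read lowest, from Chek1 to Spa17 (36.7 to 37.6 Mb, 10 members), had 0.19 and -0.06. The libraries numbered 2 gave 4 segments, with medians of 0.13 to 0.29 in the libraries numbered 1. The stretch from Tpm1 to Mindy2 was 1 of these 4, at 0.35 in the second pair and 0.18 in the first, with 13 of its 14 members above 0 in the first. The reading pair thus lay above 0 in 11 of 12 segments, in a chromosome whose median was itself 0.18.

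Ordered by what the genes do, the largest counts of called members came from surface and immune-regulatory genes and from metabolism. The lists were compiled from general knowledge with results of these data known, so their counts are descriptions. Beside them stand the shares over all tested genes (5.32% called higher, 4.73% lower, 50.3% above 0) and over the chromosome (9.94%, 2.61% and 74.7%). The first list had 12 genes, 10 of them on the chromosome and 9 of them members. Of the 9 members that encode immune ligands, adhesion molecules or immune regulators, 8 lay above 0, 4 were called higher and 1 lower, and the median log2 difference was 0.31, against 0.18 for the chromosome. Nt5e (chr9:88327197-88372092), the ectoenzyme CD73 that makes adenosine from AMP, had 32848 and 35972 normalized counts in resistant libraries and 19490.3 and 13718 in controls, a log2 difference of 1.07 ± 0.17. Mcam (CD146), an adhesion molecule, had 3391 and 4274 against 1274 and 918, a difference of 1.82 ± 0.18. Cd276, which encodes the B7 family member B7-H3, had 3349.7 and 3562 against 2611 and 2342 (0.48 ± 0.11), and this call was lost without either resistant library. For these 3 genes the lowest resistant library lay above the highest control. Nectin1, given above, was the fourth.

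Of the other surface genes, Cmtm6, whose protein keeps PD-L1 at the cell surface, had 3641 and 3622 against 3153 and 3036 normalized counts, a log2 difference of 0.23 ± 0.10, and was not called, although both resistant libraries lay above both controls. Its neighbour Cmtm8, of the same family, lay lower, at 105 and 119 against 318 and 187 (-1.12 ± 0.28), a call lost without either resistant library. The phospholipid scramblases Plscr1 and Plscr2 differed by 0.31 ± 0.12 and 0.17 ± 0.12, and neither was called.

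All 15 genes of the metabolism list were members and lay above 0 (background 50.3%, chromosome 74.7%), with a median of 0.40. Limma called 5 of them higher (background 5.32%, chromosome 9.94%) and 0 lower. Besides Idh3a these were Dlat, Uqcrc1, Gclc and Cox7a2. Dlat, a subunit of the pyruvate dehydrogenase complex, had 7174 and 7013 normalized counts in resistant and 5249 and 5362 in control libraries (0.42 ± 0.10). Uqcrc1, a core subunit of respiratory complex III, had 8566 and 9069.9 against 6723 and 6455 (0.42 ± 0.10). Gclc and Cox7a2, named for their call after the values were seen, encode a subunit of the enzyme that starts glutathione synthesis and a subunit of cytochrome c oxidase, and differed by 0.71 ± 0.13 and 0.43 ± 0.10. All calls of the list except that of Idh3a were lost without either resistant library.

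The other metabolic genes were not called but lay on the same side. Pyruvate kinase (Pkm), which ends glycolysis, had 70701 and 79716 against 61221 and 53072 normalized counts (0.40 ± 0.14). Sdhd, a membrane anchor of respiratory complex II, had 8105 and 6991 against 5079 and 6021 (0.44 ± 0.13). Etfa, which passes electrons from fatty acid oxidation to the respiratory chain, had 6003 and 5661 against 4482 and 4565 (0.37 ± 0.10). The lowest resistant library lay above the highest control in all 3. Acat1, a mitochondrial thiolase, had 5163 and 5204 against 4848 and 4102 (0.22 ± 0.12). The members of this list lie from 50.6 to 108.9 Mb, and 3 of the 15 lie in a segment.

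The list of tumor suppressors, oncogenes and signalling genes had 24 members of 29 genes. Of these, 19 lay above 0, 2 were called higher and 1 lower, and the median was 0.18, as for the chromosome. Beta-catenin (Ctnnb1), the effector of canonical Wnt signalling, had 75667 and 87026 normalized counts in resistant and 63764 and 54638 in control libraries, a log2 difference of 0.46 ± 0.15, not called. Ets1, a transcription factor, had 12617 and 10375 against 6745 and 10967 (0.41 ± 0.22), with control replicate 2 above resistant replicate 2. Smad3, which carries TGF-beta signals to the nucleus, differed by -0.03 ± 0.11, the G protein subunit Gnai2 by -0.01 ± 0.15, the maintenance methyltransferase Dnmt1 by -0.13 ± 0.11 and the transcription factor Tcf12 by 0.14 ± 0.10. Carm1, an arginine methyltransferase, was called higher at 7829 and 8066 against 6081 and 5969 (0.40 ± 0.10). The receptors Acvr2b, for activins, and Tgfbr2, for TGF-beta, named for their calls after the values were seen, differed in opposite directions, by 0.80 ± 0.17 and -0.44 ± 0.11. The calls of Carm1, Acvr2b and Tgfbr2 were lost without either resistant library.

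Of 11 DNA damage genes on the chromosome 10 passed the filter, and each of these 10 lay above 0, with a median of 0.25. Limma called 0 of them and voom 0, and 2 had an unadjusted p under 0.05 in limma. For such unadjusted counts, here and below, no share over all tested genes is given, so nothing is read from them. Topbp1, which activates the checkpoint kinase ATR, had 8462 and 8449.9 against 7691 and 7076 normalized counts (0.20 ± 0.10), and Rad54l2 3987 and 4271 against 3262 and 3841 (0.22 ± 0.12). The kinase Atr had 1991 and 1564 against 1384 and 1602 (0.24 ± 0.15), with overlapping libraries, and the histone variant gene H2afx differed by 0.01 ± 0.13. In the chromatin list 3 of 7 members lay above 0, 1 was called higher (Carm1) and 0 lower, and the median was -0.0011. It held the remodeller subunit Smarcc1 at 0.26 ± 0.10, the histone methyltransferase Setd2 at -0.12 ± 0.13, the cohesin subunit Stag1 at -0.00 ± 0.13, and the splicing regulators Rbm5 and Rbm6 at -0.04 ± 0.10 and 0.12 ± 0.10. The libraries of Setd2 and Stag1 overlapped between the groups.

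In the list of matrix proteins and their enzymes 10 of 12 genes were members. 8 of the 10 lay above 0, 3 were called higher and 0 lower, and the median was 0.24. Plod2, which hydroxylates collagen lysines, had 12356 and 12109.6 normalized counts in resistant and 6858 and 9184 in control libraries (0.62 ± 0.15). Thsd4, a protein of microfibrils, had 7538 and 8774 against 5938 and 4897 (0.59 ± 0.13). Adamts8, an extracellular protease named for its call after the values were seen, had 61.1 and 64.4 against 24 and 9.08 (2.00 ± 0.46). These 3 calls were lost without either resistant library. The sheddase Adam10 had 15299 and 16159.7 against 12603 and 11471 (0.39 ± 0.11) and type VII collagen (Col7a1) 2399 and 2665 against 1990.4 and 1845 (0.40 ± 0.12), neither called. Dystroglycan (Dag1) differed by 0.04 ± 0.11 and laminin beta 2 (Lamb2) by -0.12 ± 0.12.

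Of the 10 genes of the matrix metalloproteinase cluster near 7 Mb, 5 passed the filter, with 2 above 0. Their median of -0.28 was the value of Mmp1b alone, which had 6 to 17 reads. Limma called 0 of the 5 and voom 0, and 1 had an unadjusted p under 0.05 in limma. Stromelysin 1 (Mmp3) had 8287 and 8566 normalized counts in resistant and 13763 and 9028 in control libraries (-0.40 ± 0.19), and stromelysin 2 (Mmp10) 341 and 394 against 641 and 458 (-0.56 ± 0.20). In both genes both controls lay above both resistant libraries, but control replicate 1 was the highest, and without it the differences were -0.10 and -0.32. The collagenase Mmp13 had 139 and 169 against 149.9 and 85.7 (0.43 ± 0.30), with overlapping libraries. Mmp1a and Mmp1b, close copies of each other whose reads may have been split with error, had 6.11 to 43.2 normalized counts in the 4 libraries.

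Next to that cluster, the apoptosis inhibitor Birc3 was called lower, at 542 and 597 against 838 and 846 normalized counts (-0.56 ± 0.14), and this call was lost without either resistant library. Its paralog Birc2 had 2336 and 2123 against 1862 and 2183 (0.14 ± 0.13), and the Hippo effector Yap1 11764 and 12392 against 10795 and 11122 (0.14 ± 0.10). The inflammatory caspases, near 5.3 Mb, did not move together: Casp1 differed by 0.25 ± 0.13, Casp4 by -0.49 ± 0.16 and Casp12 by -0.23 ± 0.17. The cytokine Il18 differed by 0.15 ± 0.24 and the Janus kinase Tyk2 by 0.05 ± 0.16. With Icam1, given with the lowest members below, this list had 1 call of 6, a lower one, and a median of -0.09.

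Of 13 translation and proteostasis genes 11 lay above 0, 1 was called higher and 0 lower, and the median was 0.26. The elongation factor Eef1a1 had 237931 and 227662 normalized counts in resistant and 188649 and 203937 in control libraries (0.25 ± 0.16), and the ribosomal protein Rpl4 138889.8 and 125677 against 100811 and 119464 (0.27 ± 0.16). Rplp1 differed by 0.13 ± 0.14, Rpl14 by 0.26 ± 0.12 and the deubiquitinase Usp4 by 0.20 ± 0.10. The called gene was Rps27l (0.70 ± 0.14), named after its values were seen, and its call was lost without either resistant library. Genes of this kind have many processed copies in the genome, so their counts are uncertain. Of 5 lysosomal genes limma called 0 and voom 0, and 1 had an unadjusted p under 0.05 in limma. The beta-galactosidase Glb1 differed by 0.41 ± 0.12, cathepsin H (Ctsh) by -0.28 ± 0.16, the hexosaminidase subunit Hexa by -0.17 ± 0.15, and the hyaluronidases Hyal2 and Hyal1 by 0.23 ± 0.14 and 0.14 ± 0.24.

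Immune cell genes of the chromosome were at the floor. None of 4 T cell genes (Cd3d, Cd3e, Cd3g and Il10ra) passed the filter, and their highest count in any library was 2 reads. Of 11 chemokine receptor genes only Ccrl2, an atypical receptor, passed, at 54 and 60.1 normalized counts in resistant and 92.2 and 65.6 in control libraries (-0.44 ± 0.28, not called). Ccr2, the monocyte receptor for CCL2, had 1 and 0 reads in the resistant and 18 and 5 in the control libraries. The apolipoprotein cluster was also low, with Apoc3 at 0 and Apoa5 at 9 reads or fewer. Hepatic lipase (Lipc) had 94.8 and 89 against 53.8 and 27.2 normalized counts (1.24 ± 0.36) and was not called.

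Single members with large differences were spread over the chromosome. Among members averaging 100 or more in the higher group, the largest called rises included Nmnat3, Slc37a2, Coro2b, Mcam, Bsn, Vill and Myo5c, and none of these lay in a segment. Nmnat3, which makes NAD in mitochondria, had 169 and 159 normalized counts in resistant and 22.1 and 30.3 in control libraries, a log2 difference of 2.62 ± 0.28. The sugar phosphate transporter Slc37a2 had 575 and 680.0 against 152 and 107 (2.29 ± 0.22), and the actin regulator Coro2b 374 and 504 against 136 and 88.8 (1.97 ± 0.26). In all 3 the lower resistant library was above the higher control by more than the spread of either pair.

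The villin-like gene Vill had 485 and 585 normalized counts against 235 and 193 (1.32 ± 0.19), and was not called without resistant replicate 2. Bassoon (Bsn), a scaffold of presynaptic active zones, had 2665 and 2828 against 1168 and 1021 (1.33 ± 0.12), and its exons overlap those of Gm47303 on the same strand. Myo5c, a myosin of epithelial secretory cells, had 1116 and 1159 against 461 and 507 (1.23 ± 0.14). Slc37a2 lies shortly before the first segment, and Mcam just after it.

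The largest called falls were Cck, Layn, Icam1, St14, Acpp, Snx22, Cmtm8 and Dnaja4. The peptide hormone gene Cck (chr9:121489824-121495694) had 3 and 1 reads in the resistant libraries, 3.06 and 1.07 normalized counts, and 136 and 89.8 in the controls. At 3 reads or fewer its fold is not given. Layilin (Layn), a hyaluronan receptor, had 41.8 and 19.3 against 87.4 and 156 (-2.00 ± 0.44), and was not called without resistant replicate 2. Icam1, the adhesion molecule that leukocyte integrins bind, had 97.8 and 141 against 326 and 329.8 (-1.47 ± 0.23), and was not called without resistant replicate 1. In each of these 3 genes both resistant libraries lay below both controls.

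Matriptase (St14), a membrane serine protease of epithelia, had 62.2 and 72.9 normalized counts in resistant and 194 and 158 in control libraries (-1.37 ± 0.24), a call lost without either resistant library. The acid phosphatase Acpp had 236 and 251 against 622 and 599 (-1.32 ± 0.16). The sorting nexin Snx22 had 262 and 225 against 581 and 577 (-1.25 ± 0.17), was not called without resistant replicate 2, and shares exon sequence with Ppib on the other strand. Epcam, an epithelial marker that is not on the chromosome, was also lower, with 87.6 and 114 normalized counts in resistant and 341 and 246 in control libraries. Its relation to the values of St14 was not tested. Of the 93 members named by the rule, 25 have exons that overlap another gene, 20 of them on the other strand. No source used here says if reads were counted by strand, so reads of such pairs cannot be told apart.

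**Figure D4:**
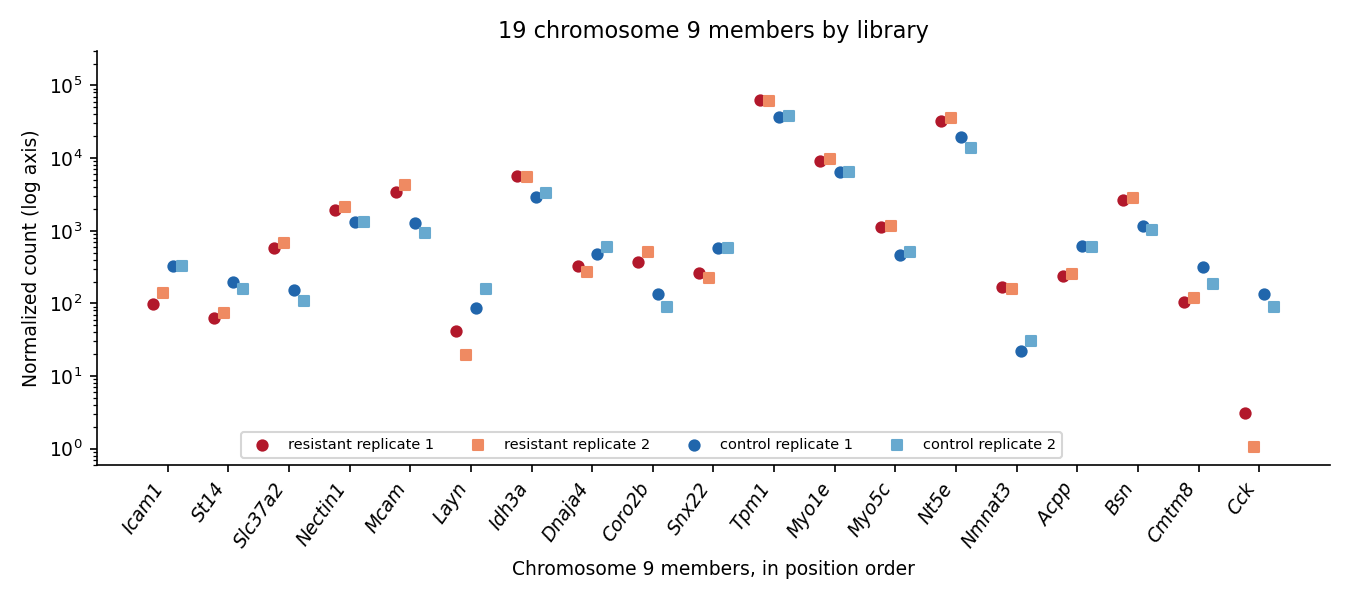
Normalized counts (y axis, log scale) of 19 named chromosome 9 members in position order (x axis), with 1 point per library and no error bars. In all 19 the 2 resistant and the 2 control libraries do not overlap, which the choice of called members fixes for most of them, and higher and lower members are interspersed along the chromosome.

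Gene properties outside the rule were set beside the shift. Protein-coding members (686) had a median of 0.19 with 79.4% above 0, and the 119 members of other types, mostly noncoding genes and pseudogenes, had -0.04 with 47.1% above 0. On the other chromosomes the same classes had -0.01 and -0.06. Split into 3 equal groups by mean normalized count, the members had medians of 0.07, 0.18 and 0.19, from low to high, and genes of the other chromosomes in the same ranges had -0.04, -0.01 and -0.00. The lowest of these groups held 18 of the 21 called falls and 21 of the 80 called rises. These were 6.72% and 7.84% of its members, against 4.73% and 5.32% of all tested genes. The same group had the widest quartiles, -0.37 and 0.49, against 0.08 and 0.34 in the highest. The spread around the shift was thus narrower among members with high counts.

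Length, strand and promoter composition did not divide the members in the same way. Split by gene length into 3 groups, they had medians of 0.16, 0.18 and 0.18. Members on the plus and minus strands had 0.18 and 0.16. Split by the number of CpG dinucleotides in the 620 promoter windows, at 0 to 15, 16 to 25 and 26 to 63, had 0.18, 0.18 and 0.20. No test was made of these divisions, because all of them use the contrast that drew the line.

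Among 20 chromosomes chromosome 9 came in position 3 by median log2 difference, after 15 (0.20, 577 genes) and 6 (0.18, 696 genes), and the other 19 ran from -0.23 to 0.20. At the low end stood 19 (-0.23, 493 genes) and 3 (-0.16, 728 genes). Chromosome 6 was the only other one whose running median stayed above 0 throughout, from 0.01 to 0.37, and 2 chromosomes stayed below 0 throughout. Chromosome 15 had a like median but another profile. Its running median ran from -0.10 to 0.53 and its segments held 36.2% of its genes, against 0.03 to 0.38 and 8.57% on chromosome 9. Segments held 13.1% on chromosome 6, 18.0% on 3 and 36.5% on 19. Between each gene and the next in position order, the log2 differences had a correlation of 0.051 on chromosome 9. On each of the other 19 chromosomes it was higher, from 0.057 to 0.36 with a median of 0.13. Neighbours on chromosome 9 thus resembled each other less than on any other chromosome. All these values share the 4 libraries, and differences between chromosomes were not tested.

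**Figure D5:**
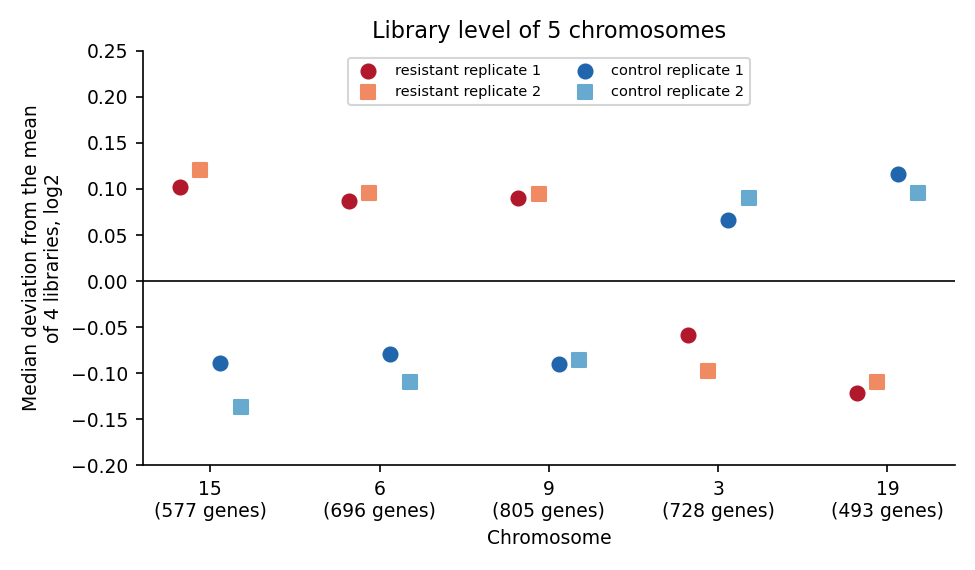
Level of 5 chromosomes (x axis, with the number of tested genes) in each library, as the median deviation of their genes from the mean of the 4 libraries, log2, less that of all tested genes (y axis). Points are single libraries. On 15, 6 and 9 both resistant libraries lie above 0 and both controls below, and on 3 and 19 the order is the opposite.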

How the data were processed

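RNA-seq libraries of 2 resistant and 2 control samples were grouped by their source labels. The authors deposited log2 values per gene, made with STAR, DESeq2 and mm10 per the submitters' processing notes, where versions are missing. Back-transformed, each deposited log2 value was a whole number of library-specific steps at a tolerance of 0.01 reads, so they are log2(normalized count + 1), and reads and depth were recovered. Identifiers joined GENCODE release 21 (GRCm38) for 55144 of 55385 genes without the version and 54487 with it. Genes with a mean of at least 10 entered a trended limma 3.58.1 fit (R 4.3.3, no block). Fold changes on this scale understate those of low genes. The running median covers 31 members, fewer at the ends, less the median of all tested genes.

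Named members were, per segment, the first and last, the 3 with the highest mean, and the largest with and against the segment's direction; the 8 largest called rises and falls; and up to 6 with the highest mean per list. The rule leaves out predicted genes and pseudogenes, except that it let through Mmp1a, annotated as a polymorphic pseudogene; predicted genes appear only as ends or edges of segments, at the filter or as overlaps. A few members are not reported here. The members, lists and rules were chosen with earlier results of these data known. The steps were tested on simulated data with a planted stretch that was longer and more strongly shifted than the segments here. That run therefore does not show if segments of their size are found. Alternatives were other filters, scalings, pseudocounts, windows, thresholds, a replicate block, limma voom and leaving out libraries.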

Additional observations from a re-analysis of the deposited data

How the results depend on the processing

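Every named call kept its sign under the fits with a replicate block and without 1 library: of 34 called, the block kept 27, leaving out either control library kept 34, and leaving out resistant replicate 1 or 2 kept 14 or 11. Without a resistant library the spread comes from the control pair alone, which varies more. The calls on chromosome 9 (80 higher, 21 lower) became 11 and 4 with no filter on low values, where 26782 genes were fitted (background 0.47% and 0.691%), and ran from 11 to 215 and from 6 to 52 without 1 library. Same-numbered libraries did not deviate together (r = -0.36 over all tested genes), so the numbers are not taken to pair the samples. The replicate block gave 55 and 19 calls, 6.83% and 2.36% of members (background 4.41% and 4.11%). The crossed replicate block, added after seeing the data, gave 255 and 49 (background 16.9% and 15.3%). The number of segments (3) was 1 with a window of 61 members, 8 at a threshold of 0.15, 0 at 0.35 and 8 from the libraries numbered 1 only, and their share of members (8.57%) was 3.48%, 54.8%, 0% and 19.1%. Without 1 library these ran from 4 to 7 segments and from 9.81% to 15.8%. The segment medians without 1 library ran from 0.26 to 0.40, 0.23 to 0.31 and 0.24 to 0.33. The median of the whole chromosome (0.18), a result added after seeing the data, was 0.17 with a pseudocount of 5, 0.19 with protein coding genes only, 0.15 without called genes, and 0.17 to 0.18 without 1 library. Causes were not tested.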
